A study of Mus musculus with 18 samples.

Results

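The collagen chain genes are the protein-coding genes that encode the alpha chains of the collagen family. They were chosen by symbol alone, as Col followed by a type number, the letter a and a chain number, which gave 44 genes of the 55487 in the count table. RNA was sequenced from mouse retinal cells sorted by flow into a CD11b-positive fraction, called microglia here, and a CD11b-negative fraction, called retina, both of viable cells that excluded the dye DAPI. Each fraction came from knockout mice of the genotype Bmal1-mg/-mg, which the series describes as a microglial knockout of the clock gene Bmal1 (5 libraries), and from control mice with floxed Bmal1, Bmal1f/f (4 libraries). The Cre line, age, sex, time of day and number of mice per library are not given in the sources used here. With no label that ties libraries to separate mice, p-values measure only the spread between libraries.

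Collagens are extracellular proteins built from trimers of alpha chains wound around each other, and the winding needs a glycine at regular steps along each chain. Fibrillar chains form the ropes of connective tissue, cartilage and vitreous, while type IV chains form the mesh of basement membranes around vessels and at the inner surface of the retina. Fibril-associated collagens with interrupted helices (FACIT) coat fibrils, multiplexins sit in basement membrane zones, and transmembrane collagens stay anchored in the plasma membrane. In the eye, type II and type IX collagens are best known from the vitreous, and type IV and type XVIII collagens from the basement membranes of retina and vessels.

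Total counts were 32277156 to 47563119 per library, and 3 counts corresponded to 0.0574 to 0.102 CPM (counts scaled to library size), the scale on which levels are given. The 7 microglia markers summed to 38983 to 42921 CPM in knockout microglia and 43398 to 50723 CPM in control microglia, against 7.59 to 18.1 CPM in knockout retina and 12.7 to 17.5 CPM in control retina. The 10 rod markers summed to 5150 to 11850 CPM in knockout microglia and 7241 to 10521 CPM in control microglia, so rod RNA was present in both fractions. Arntl, the gene for Bmal1, had 13.6 ± 8.75 CPM in knockout microglia (SD, n = 5) and 18.5 ± 7.43 CPM in control microglia (SD, n = 4), with overlapping ranges. These counts cover the whole gene and do not separate a deleted stretch from the rest.

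The coding exons show what the classes share. The exons printed here are 54 bases long, or 6 Gly-X-Y triplets of 9 bases, and capitals mark the glycine codons, GGN. Col2a1 held 24 exons of this form and Col23a1 held 2. The Col2a1 exon lies at chr15:97998545-97998598 on the minus strand and the Col23a1 exon at chr11:51569461-51569514 on the plus strand of GRCm38, both read from GENCODE M21 transcripts.
Col2a1: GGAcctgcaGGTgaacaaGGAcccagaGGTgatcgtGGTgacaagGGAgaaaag
Col23a1: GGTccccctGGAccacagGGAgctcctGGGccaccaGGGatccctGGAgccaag
Both exons repeat glycine without a break, and the classes differed in how far such repeats ran. The 11 fibrillar chains had an unbroken run of 216 to 344 glycine triplets, and 9 of them reached 330 or more. Outside that class 0 chains reached 330, and the highest had 113. The 6 type IV chains had coding regions of similar length but held 22 to 27 separate runs, the longest of 39 to 66 triplets. The 44 genes lie on 15 chromosomes, and the type IV genes lie in head-to-head pairs.

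**Figure D1:**
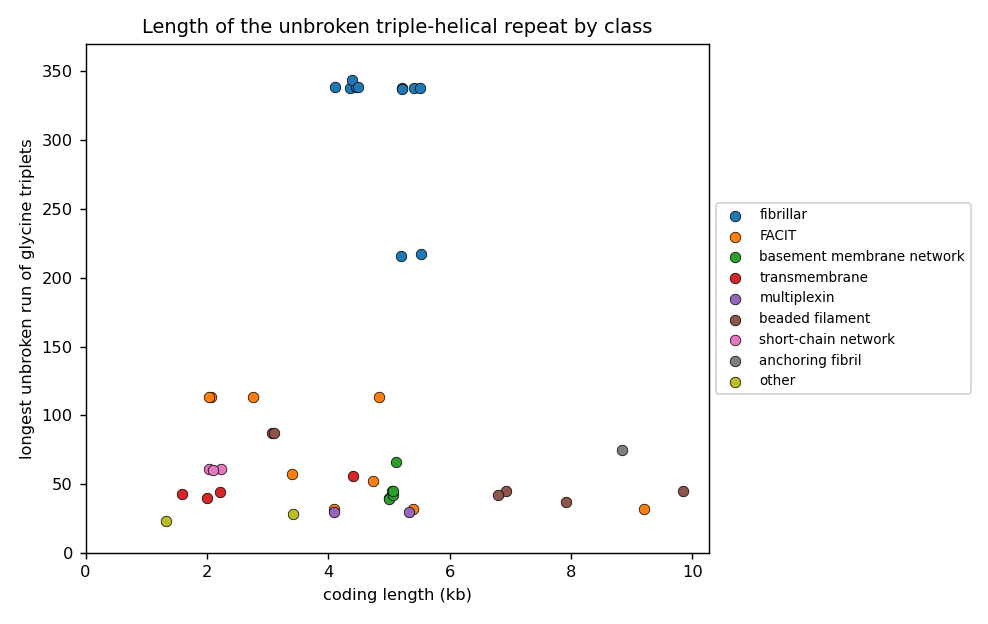
Longest unbroken run of glycine triplets (y axis, number of triplets) against coding length (x axis, kb) for the 44 collagen chain genes, coloured by class. The 11 fibrillar chains lie at 216 to 344 triplets, and the other chains lie at 113 or fewer.

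The promoters of Col4a1 and Col4a2, which encode partner chains of the same trimer, are shown because the genes start from a shared stretch, while their transcripts were often read in different libraries. The genes run head to head on mouse chromosome 8 and overlap by 22 bases. The windows hold 250 bases before and 50 after each start (RefSeq, GRCm38.p6), Col4a1 at chr8:11312777-11313076 on the minus strand and Col4a2 at chr8:11312555-11312854 on the plus strand. Capitals mark the 78 bases that both windows cover, on opposite strands.
Col4a1: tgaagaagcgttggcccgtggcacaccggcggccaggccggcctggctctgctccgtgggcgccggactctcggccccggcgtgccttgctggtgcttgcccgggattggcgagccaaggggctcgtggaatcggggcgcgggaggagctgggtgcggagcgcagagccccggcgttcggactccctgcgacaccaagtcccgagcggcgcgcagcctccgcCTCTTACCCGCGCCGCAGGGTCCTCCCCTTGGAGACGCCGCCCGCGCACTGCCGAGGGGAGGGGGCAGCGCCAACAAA
Col4a2: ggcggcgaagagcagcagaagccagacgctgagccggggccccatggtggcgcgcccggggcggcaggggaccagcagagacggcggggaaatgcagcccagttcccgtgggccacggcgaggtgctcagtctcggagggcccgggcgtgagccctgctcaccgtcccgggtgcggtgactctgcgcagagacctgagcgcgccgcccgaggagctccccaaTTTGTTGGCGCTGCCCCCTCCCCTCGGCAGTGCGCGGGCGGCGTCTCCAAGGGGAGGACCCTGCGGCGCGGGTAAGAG
Searched on both strands, GGGCGG was found 1 time in the Col4a1 window and 3 times in the Col4a2 window, and CCAAT 1 time in each. RefSeq windows were matched for 35 of the 44 members, 38 windows in all. Of these, 23 (60.5%) held GGGCGG, against 35.7% of 32851 windows of all genes, and 13 (34.2%) held CCAAT, against 37.4%. The letters CACGTG, the E-box that Bmal1 with its partner Clock is known to bind, were in 0 of the 38 windows and in 7.15% of all. A match describes letters in a window of 300 bases, not a bound site.

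Collagen transcripts were sparse and uneven in both fractions. Of the 44 members, 10 to 20 had a read in each knockout microglia library and 15 to 23 in each control microglia library, against 21 to 29 in knockout retina and 15 to 23 in control retina. Col11a2 alone had reads in all 18 libraries. Averaged within groups, 18 members reached 5 CPM in at least 1 group and 28 reached 1 CPM. Of the 35 pairs of member and group at 5 CPM or more, 9 included a library with 3 reads or fewer, so that high and near-empty libraries stood side by side within a group. The 10 members with 20 reads or fewer over all 18 libraries were Col1a1, Col5a2, Col6a3, Col6a4, Col6a5, Col6a6, Col10a1, Col13a1, Col24a1 and Col28a1. Col1a1, the main chain of type I collagen, had 9 reads in all.

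**Figure D2:**
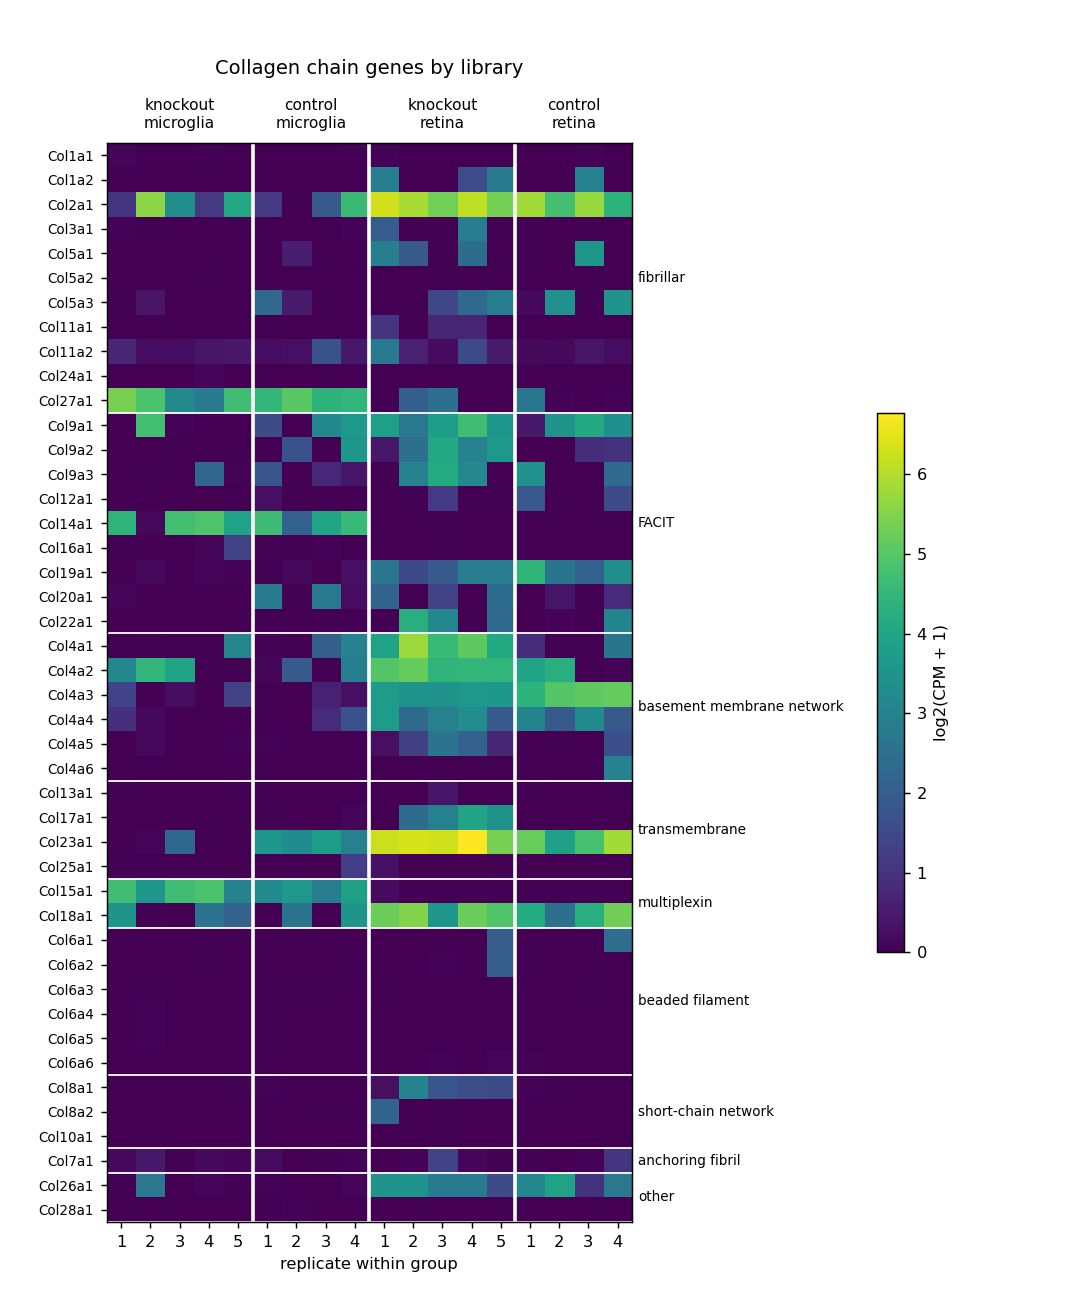
Level of each collagen chain gene (rows, by class) in each of the 18 libraries (columns, by group), as log2(CPM + 1) on the colour scale. Col2a1 and Col23a1 are bright in the retina libraries, Col14a1, Col15a1 and Col27a1 in the microglia libraries, and most beaded filament and short-chain genes are dark throughout.

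Summed over the family, collagen took 73.4 to 140.4 CPM in knockout microglia and 66.5 to 139 CPM in control microglia. The retina libraries held 318, 353, 275, 381 and 231 CPM in knockout mice and 198, 135, 179 and 222 CPM in control mice, and these ranges did not overlap. Pooled over libraries, fibrillar chains took 38.7% of collagen reads in knockout microglia and 35.4% in control microglia. FACIT chains took 24.2% in knockout microglia and 32.1% in control microglia, and multiplexins took 23.2% in knockout microglia and 14.9% in control microglia. The order varied between libraries, as fibrillar chains led in knockout replicates 1, 2 and 5 and control replicate 2, and FACIT chains led in the other microglia libraries. In the retina the pooled reads spread over transmembrane chains (26.7% in knockout and 18.6% in control), type IV chains (23.8% in knockout and 24.9% in control) and fibrillar chains (22.5% in knockout and 26.6% in control). Beaded filament chains, the type VI collagens of fibroblast matrix, were read almost wholly in 1 library of each retina group. They summed to 6.11 CPM in knockout retina replicate 5, with 0 to 0.102 CPM in the other knockout libraries, and to 4.40 CPM in control retina replicate 4, with 0 to 0.0574 CPM in the other control libraries. Of the 8 fibroblast markers, 4 had no reads in knockout retina and 6 had none in control retina. All 8 summed to 0 to 7.04 CPM in knockout retina and 0 to 10.9 CPM in control retina. Pdgfra averaged 1.95 CPM in knockout retina and 2.73 CPM in control retina. The part of these markers in the beaded filament values was not tested.

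Per kilobase of exon, which allows genes to be compared, the order of the chains differed between the fractions. Knockout microglia were led by Col15a1 at 3.02 ± 1.49 CPM per kb, Col14a1 at 2.54 ± 1.62 and Col27a1 at 1.65 ± 1.12 (mean ± SD, n = 5). Control microglia were led by Col14a1 at 2.36 ± 1.38 CPM per kb, Col27a1 at 1.80 ± 0.423, Col23a1 at 1.69 ± 0.455 and Col15a1 at 1.55 ± 0.491 (mean ± SD, n = 4). Neighbours in either order were closer than the larger of their SDs. Knockout retina was led by Col23a1 at 13.3 ± 4.19 CPM per kb, followed by Col2a1 at 6.17 ± 1.87 and Col18a1 at 4.53 ± 1.84 (n = 5). Control retina was led by Col23a1 at 5.77 ± 3.09 CPM per kb, Col2a1 at 4.18 ± 1.98 and Col4a3 at 2.96 ± 0.668 (n = 4). Only the lead of Col23a1 over Col2a1 in knockout retina exceeded both SDs.

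**Figure D3:**
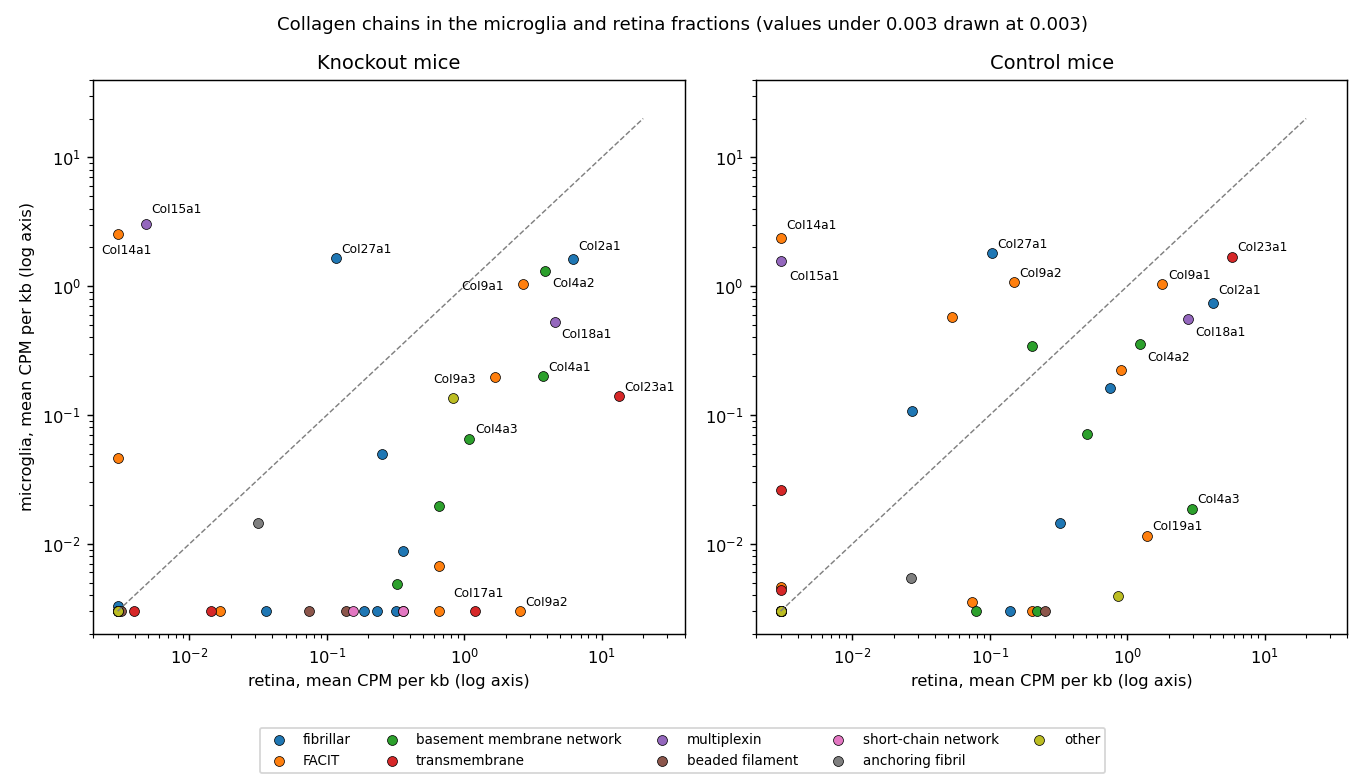
Mean CPM per kb in microglia (y axis, log) against retina (x axis, log) for each collagen chain gene, knockout mice on the left and control mice on the right; genes at 1 CPM per kb or more are named and the dashed line marks equal levels. Col14a1, Col15a1 and Col27a1 lie above the line in both genotypes, while Col2a1, Col23a1, Col18a1, Col4a2, Col4a3 and Col9a1 lie below it.

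The fractions were compared within each genotype with edgeR's quasi-likelihood test over all genes, with Benjamini-Hochberg adjustment. In knockout mice 14 members passed the filter on low counts and 6 were called at an adjusted p under 0.05 (42.9%), against a background of 44.9% of all genes tested. Among them 1 was higher in microglia and 5 were lower, against backgrounds of 23.7% and 21.2%. In control mice 17 passed and 6 were called (35.3%), against 40.2% of all genes, with 2 higher and 4 lower against 22.8% and 17.4%. By edgeR with all libraries in the fit, the shares called were near those of all genes. Without knockout microglia replicate 2, 13 of 19 members tested were called in knockout mice and 7507 genes in all. Without replicate 5 these were 10 of 18 members and 6961 genes, where the fit with all libraries called 6825 genes. How many genes were tested without those libraries is not given here, so these member counts have no background share. DESeq2 called 10 of the 14 members in knockout mice (52.2% of all genes) and 6 of the 17 in control mice (47.1% of all genes), while limma voom called 13 in knockout mice (56.4% of all genes) and 10 in control mice (49.5% of all genes). The median log2 change, microglia minus retina, was -2.94 over the 14 members in knockout mice, where all genes had -0.10, and -1.85 over the 17 members in control mice, where all genes had 0.02. Members with almost no reads in microglia, such as Col19a1 and, in knockout mice, Col9a2, passed the filter through the retina libraries alone. Members with almost no reads in retina, such as Col15a1, passed it through the microglia libraries alone. These medians and counts therefore describe the members tested and support no statement on the family.

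Col15a1 and Col14a1 were the chains called higher in microglia. Col15a1, a multiplexin of microvessel and muscle basement membranes, had 25, 10.7, 25.2, 27.8 and 7.17 CPM in knockout microglia, against 6 reads in knockout retina, all in replicate 1 (log2 change 9.11, SE 1.46, adjusted p = 0.000509). Control microglia had 8.46, 11.3, 6.32 and 13.4 CPM of Col15a1, against 0 reads in the 4 control retina libraries, at least 570.0-fold higher when the floor of 3 counts over the group is used (adjusted p = 0.000445). Every microglia library thus exceeded every retina library. Col14a1, a FACIT chain of tendon and skin fibrils, had 20.1, 0.111, 25.2, 29.1 and 14.3 CPM in knockout microglia and 0 reads in all 5 knockout retina libraries, at least 1220-fold higher. With 4 reads in knockout replicate 2, it did not pass the filter there and was not tested in knockout mice. Control microglia had 24.4, 3.41, 15.2 and 23.2 CPM of Col14a1 and control retina had 0 reads, at least 968-fold higher (adjusted p = 0.00132). Col14a1 in control mice and Col15a1 in both genotypes passed the filter through the microglia libraries alone. The p-values of these calls are therefore no support separate from the read counts. Markers of macrophages at tissue borders moved with the fraction too. The 6 of them summed to 166 to 619 CPM in knockout microglia and 16 to 495 CPM in control microglia. In retina they summed to 15.9 to 18.6 CPM in knockout mice and 0 to 4.85 CPM in control mice, nearly all of it Lyve1. Lyve1 itself averaged 18.8 CPM in knockout microglia and 17.4 CPM in knockout retina. The part of these markers in the result was not tested.

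Col27a1, a fibrillar chain best known from cartilage, was abundant in microglia but did not pass the test between fractions. It had 40.5, 28.2, 8.04, 5.82 and 24.8 CPM in knockout microglia and 21.4, 31.7, 19.8 and 21.1 CPM in control microglia, with 0, 3.05, 4.51, 0 and 0 CPM in knockout retina and 5.28, 0.0560, 0 and 0.0413 CPM in control retina. Microglia and retina libraries did not overlap within either genotype (log2 change 3.74, SE 1.75, adjusted p = 0.108 in knockout mice and log2 change 4.08, SE 1.81, adjusted p = 0.110 in control mice). Without control retina replicate 1 the control value was a log2 change of 9.32 with an adjusted p of 0.000316.

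The chains called lower in microglia belonged to several classes. Col23a1, a transmembrane collagen, was lower in microglia of knockout mice (log2 change -6.64, SE 1.69, adjusted p = 0.00877) and of control mice (log2 change -1.81, SE 0.45, adjusted p = 0.0134). Col4a3, a type IV chain of kidney and eye basement membranes, was lower in knockout mice (log2 change -4.12, SE 1.38, adjusted p = 0.0321) and in control mice (log2 change -7.32, SE 1.44, adjusted p = 0.00438). In knockout mice that Col4a3 call had an adjusted p of 0.0550 to 0.0661 without microglia replicate 3 or without any of the 5 retina libraries. Col19a1, a FACIT chain of basement membrane zones, had 0, 0.111, 0, 0.0677 and 0.0529 CPM in knockout microglia against 5.33, 1.76, 2.75, 6.29 and 6.32 CPM in knockout retina (log2 change -6.60, SE 1.09, adjusted p = 0.000610). Control microglia had 0, 0.103, 0 and 0.216 CPM of Col19a1 against 20.5, 5.15, 3.31 and 9.17 CPM in control retina (log2 change -6.89, SE 1.58, adjusted p = 0.00911). Groups did not overlap for Col19a1 in either genotype. Col4a4, the head-to-head neighbour of Col4a3, was called lower in knockout mice (log2 change -5.12, SE 1.59, adjusted p = 0.0232). Col9a2, a type IX chain, was also called lower in knockout mice, with 0 reads in all 5 microglia libraries against 1632 reads in the 5 retina libraries, at least 472-fold lower. In control mice its mean was higher in microglia, at 3.33 CPM against 0.462 CPM in retina. That change did not pass (log2 change 2.80, SE 2.44, adjusted p = 0.397). Col26a1 was called lower in control mice (log2 change -7.68, SE 1.49, adjusted p = 0.00413), with 5 reads over the 4 control microglia libraries.

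The genotype comparison asks how transcripts differ in knockout mice within each sorted fraction. In the microglia 10 of the 44 members passed the filter and edgeR called 0, against 0.115% of all genes tested (0.101% higher and 0.0135% lower). No member, 0 of 10, had an unadjusted p under 0.05 by edgeR, against 855 of the 14835 genes tested. Calls were also 0 with DESeq2 (1.6% of all genes) and limma voom (0.175% of all genes). The median log2 change was -0.04 over the 10 members and -0.01 over all genes. In the authors' deposited table for microglia 8 members were listed and 0 were past 0.05, where 0.592% of the listed genes were. The smallest unadjusted p of a member in the authors' deposited table for microglia was 0.0302, for Col23a1 (log2 change -3.61, adjusted p = 0.871).

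By edgeR Col15a1 had the smallest p in microglia, and its groups overlapped. Its knockout libraries spread more widely than the control libraries, from 7.17 to 27.8 CPM in knockout microglia against 6.32 to 13.4 CPM in control microglia (log2 change 0.96, SE 0.48, adjusted p = 0.900). Col23a1 had 0, 0.0829, 3.93, 0 and 0 CPM in knockout microglia and 10.8, 8.59, 12.7 and 6.68 CPM in control microglia, so the groups did not overlap, yet the change did not pass (log2 change -3.59, SE 1.89, adjusted p = 0.920). Knockout replicate 3 held 150 of the 153 Col23a1 reads in knockout microglia, and without it the log2 change was -8.65 with an adjusted p of 0.0786. The control microglia level of Col23a1 stood beside 13.6 to 55.9 CPM in control retina.

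**Figure D4:**
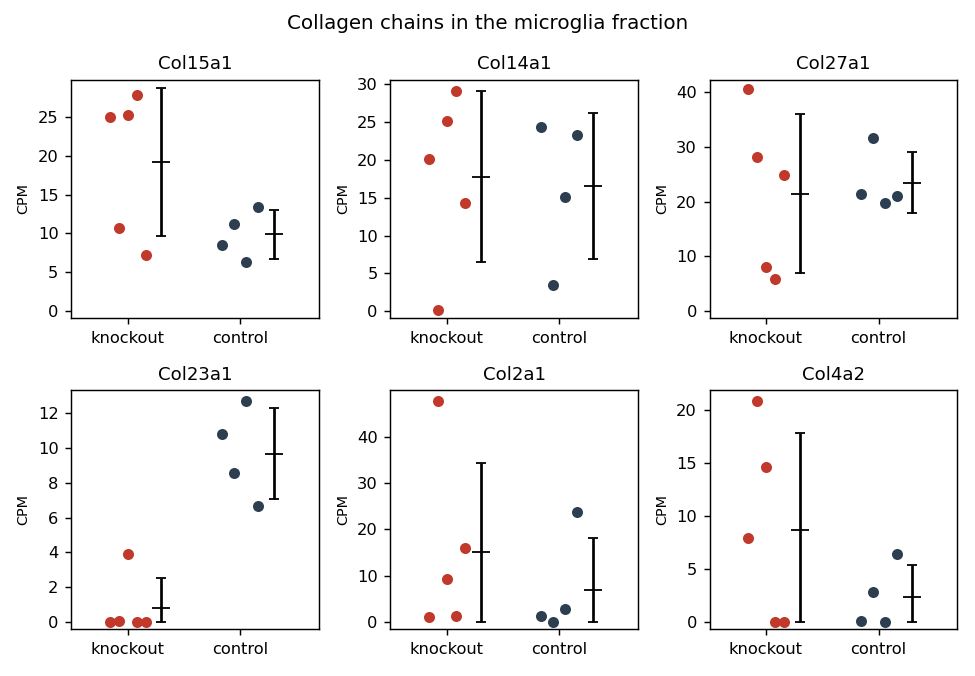
CPM of 6 collagen chains in each microglia library (points), knockout left and control right, with mean and SD beside them and the lower bar stopped at 0. The genotypes overlap for each gene except Col23a1, where knockout libraries lie at 0 to 3.93 CPM and control libraries at 6.68 to 12.7 CPM.

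The other microglial chains of note varied within genotypes. Col14a1 and Col27a1 overlapped widely between knockout and control microglia. Col2a1, the main fibril chain of cartilage and vitreous, had 1.05, 47.6, 9.19, 1.22 and 16 CPM in knockout microglia and 1.22, 0, 2.69 and 23.6 CPM in control microglia. Col4a2 had 7.97, 20.8, 14.6, 0 and 0.0265 CPM in knockout microglia and 0.0959, 2.81, 0 and 6.44 CPM in control microglia, and Col18a1, the multiplexin that carries endostatin, had 10.3, 0.0276, 0, 4.94 and 3.28 CPM in knockout microglia and 0, 5.14, 0 and 10.4 CPM in control microglia. Each of these ranged widely within both genotypes, and the groups overlapped. Col9a1 had 0, 26.1, 0.0523, 0 and 0 CPM in knockout microglia and 1.97, 0, 7.88 and 11.1 CPM in control microglia, with 943 of the 945 knockout reads in replicate 2. Col9a2 had 0 reads in knockout microglia and 0, 2.27, 0 and 11 CPM in control microglia, and Col9a3 had 0, 0.0276, 0, 3.69 and 0.0529 CPM in knockout microglia and 2.45, 0, 0.730 and 0.298 CPM in control microglia. The type IX chains form a trimer together, and among the microglia libraries control replicate 4 alone had reads of all 3.

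In the retina 2 members passed the test, 1 in each direction. Of the 44 members, 21 passed the filter and 2 were called (9.52%), against 1.66% of all genes tested. Col8a1 was higher in knockout retina (background 1.34% higher) and Col4a3 was lower (background 0.326% lower). The log2 change was positive for 16 of the 21 members and negative for 5, with a median of 0.82, where all genes had 50.2% positive and a median of 0.003. The number called was 0 without knockout replicate 3, knockout replicate 4 or control replicate 3, it was 3 without knockout replicate 1, and it was 1 without each other library. Some members passed the filter through their level in knockout retina alone, so these counts describe the members tested and support no statement on the rest. By edgeR an unadjusted p under 0.05 was reached by 7 of the 21 members and by 2180 of the 15332 genes tested. DESeq2 called 5 members (7.72% of all genes) and limma voom called 1 (2.37% of all genes). The authors' deposited table for retina listed 19 members with 5 past 0.05, where 5.58% of its genes were past it. Those 5 were Col17a1, Col8a1, Col4a3, Col4a1 and Col23a1, all but Col4a3 higher in knockout retina in the authors' deposited table.

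Sums of other cell types' markers differed by genotype in the retina, though not every marker of a list did. The 10 endothelial markers summed to 212 to 433 CPM in knockout retina and 71.6 to 210.4 CPM in control retina, without overlap. Most of that sum was Kdr, with a mean of 256 CPM in knockout retina and 103 CPM in control retina. Of 9 endothelial markers tested, 6 had a positive log2 change and 1 was called higher, against 1.34% of all genes. Cdh5, Emcn and Tek had lower means in knockout retina. The 9 mural markers summed to 22.8 to 178 CPM in knockout retina and 14.1 to 50.7 CPM in control retina. Müller glia markers (7 genes) summed to 1682 to 3070 CPM in knockout retina and 832 to 2065 CPM in control retina. The 6 cone markers summed to 2499 to 5776 CPM in knockout retina and 745 to 1600.1 CPM in control retina, and the 4 amacrine cell markers to 180.04 to 310.3 CPM in knockout retina and 63.3 to 139 CPM in control retina, both without overlap. The 6 markers of border macrophages summed to 15.9 to 18.6 CPM in knockout retina and 0 to 4.85 CPM in control retina. Nearly all of that was Lyve1, with a mean of 17.4 CPM in knockout retina and 2.27 CPM in control retina. Mrc1 averaged 0.0242 CPM in knockout retina and 0.0165 CPM in control retina. Cd163, F13a1, Ms4a7 and Pf4 had 0 CPM in both. Bipolar cell markers (8 genes) summed to 1377 to 2492 CPM in knockout retina and 219.6 to 639 CPM in control retina, and the 10 rod markers to 115598 to 145305 CPM in knockout retina and 142903 to 211074 CPM in control retina. With rod marker level as a covariate edgeR called 0 members and 0 genes in all. The number of genes with a read separated the genotypes as well, at 18761 to 19713 per library in knockout retina and 16510 to 18715 in control retina, and at 17343 to 18438 in knockout microglia and 18654 to 19363 in control microglia. With that number as a covariate edgeR called 0 members and 2 genes in retina. Both covariates largely followed genotype in the 9 retina libraries. Fits with them cannot separate genotype from the covariate, and no conclusion is drawn from them here or below. The part of the other lists in the collagen values was not tested. In bulk samples fewer cells of a type and less RNA per cell cannot be told apart.

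Type IV collagen, the basement membrane network, held both directions. Col4a3 (chr1:82586921-82722059, plus strand, GRCm38) had 12.2, 10.3, 9.88, 11.2 and 10.7 CPM in knockout retina and 19.9, 30.1, 33.1 and 34.8 CPM in control retina. The knockout libraries lay within a narrow band below all the control libraries, and Col4a3 fell in knockout retina (log2 change -1.48, SE 0.23, adjusted p = 0.0189). The direction held in every alternative fit, but the adjusted p was 0.0571 without knockout replicate 3, 0.0516 without knockout replicate 4 and 0.0517 without control replicate 3. It was 0.397 with the number of genes per library as a covariate and 0.824 in a fit over all 18 libraries. Of the exon bases of Col4a3, 5.65% overlap C430014B12Rik on the opposite strand, and whether counting used strand is not given in the sources used here.

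Col4a4 and Col4a5, which encode the partners of Col4a3 in one trimer, did not share its pattern. Col4a4 starts 71 bases from Col4a3 on the opposite strand and had 12.5, 4.11, 6.67, 8.99 and 2.72 CPM in knockout retina and 7.31, 2.77, 8.67 and 2.73 CPM in control retina. Its groups overlapped (log2 change 0.34, SE 0.60, adjusted p = 0.896), and the sign turned with rod marker level as a covariate (log2 change -0.04). Col4a5 had 0.205, 1.42, 5.14, 3.36 and 0.656 CPM in knockout retina and 0, 0, 0 and 2.15 CPM in control retina, and Col4a6 had reads in 1 library, 7.00 CPM in control retina replicate 4. Col4a3 was thus the most abundant of these partners per kilobase in control retina.

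Col4a1 and Col4a2, which encode the common vessel basement membrane chains and share the promoter printed above, were read in all 5 knockout retina libraries. Col4a1 had 14.1, 53.4, 22.5, 33.2 and 16.4 CPM in knockout retina and 0.842, 0, 0 and 5.20 CPM in control retina. Every knockout library exceeded every control library, and the change did not pass (log2 change 4.15, SE 1.52, adjusted p = 0.235). DESeq2 gave an adjusted p of 0.0243, while the log2 change was 0.02 with rod marker level and 0.90 with the number of genes per library as a covariate. Col4a2 had 30.03, 34.9, 20.7, 21.5 and 21.1 CPM in knockout retina and 14.5, 18.4, 0 and 0.0413 CPM in control retina, again with the groups apart (log2 change 1.60, SE 1.43, adjusted p = 0.729). Within control retina the pair was seldom read together, since replicates 1 and 2 held nearly all Col4a2 reads and replicate 4 most Col4a1 reads. Knockout microglia showed the same split, with Col4a2 in replicates 1, 2 and 3 and Col4a1 in replicate 5 at 7.41 CPM. Control microglia were mixed, as replicate 2 held Col4a2 alone and replicate 3 Col4a1 alone. Control microglia replicate 4 held both, with 6.95 CPM of Col4a1 and 6.44 CPM of Col4a2.

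Among short-chain and transmembrane collagens of the retina, Col8a1 passed the test and Col17a1 and Col23a1 did not. Col8a1 (chr16:57624258-57754737, minus strand), a network chain found beneath endothelia, had 8, 340, 98, 87 and 85 reads in knockout retina and 2, 1, 0 and 0 reads in control retina. The groups did not overlap and the ratio of pooled reads, each over the pooled library sizes, was 172, with a 95% counting interval of 58.6 to 836 that covers counting error only. Col8a1 was called higher in knockout retina (log2 change 7.12, SE 1.43, adjusted p = 0.0459), but the adjusted p was 0.0714 to 0.10 when a control library was left out. Leaving out any of knockout replicates 2 to 5 took it below the filter. Limma voom gave 0.0729, and the fit with the number of genes per library as a covariate 0.550. Its partner Col8a2 had 136 reads, all in knockout retina replicate 1.

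Col17a1, a hemidesmosome component of epithelia, had 0, 199, 271, 607 and 435 reads in knockout retina and 0 reads in all 4 control retina libraries. Knockout replicates 2 to 5 held it and replicate 1 did not, and the level from pooled reads was at least 421-fold higher in knockout retina. EdgeR gave an adjusted p of 0.0970, DESeq2 2.24e-06, and edgeR without knockout replicate 1 0.0293. Col23a1, the most abundant collagen chain of the retina per kilobase, had 73.6, 81.5, 76.5, 108 and 41.1 CPM in knockout retina and 35.7, 13.6, 27.1 and 55.9 CPM in control retina. The groups overlapped through knockout replicate 5 and control replicate 4, and the change did not pass (log2 change 1.16, SE 0.40, adjusted p = 0.206). With rod marker level as a covariate its sign turned, to a log2 change of -0.60.

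**Figure D5:**
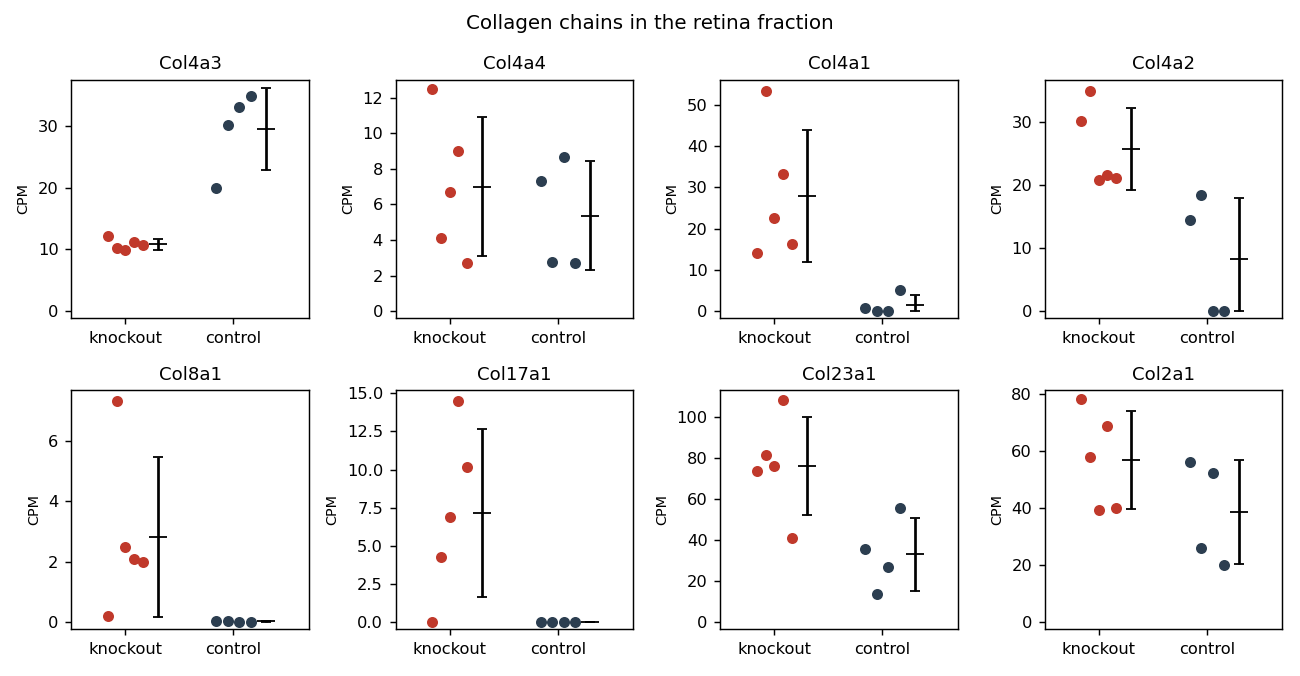
CPM of 8 collagen chains in each retina library (points), knockout left and control right, with mean and SD beside them and the lower bar stopped at 0. Col4a3 lies at 9.88 to 12.2 CPM in knockout retina and 19.9 to 34.8 CPM in control retina, and Col4a1 lies higher in each knockout library than in any control library.

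Fibrillar chains and their partners overlapped between genotypes in the retina. Col2a1 had 78.5, 58.1, 39.4, 68.9 and 40.2 CPM in knockout retina and 56.3, 26, 52.3 and 20 CPM in control retina (log2 change 0.52, SE 0.36, adjusted p = 0.616). Col11a2, which encodes a chain that mixes into type II fibrils, had 5.73, 0.538, 0.153, 1.86 and 0.398 CPM in knockout retina and 0.134, 0.112, 0.338 and 0.165 CPM in control retina (log2 change 3.16, SE 1.12, adjusted p = 0.218). Its level was highest in knockout replicate 1. Col5a3 had 0, 0, 1.71, 4.00 and 6.39 CPM in knockout retina and 0.134, 9.85, 0.0260 and 10.4 CPM in control retina, and its type V partner Col5a1 had 6.48, 2.69, 0.0255, 4.27 and 0 CPM in knockout retina and 0.0191, 0, 10.9 and 0 CPM in control retina, while Col5a2 had 1 read in all 18 libraries. The 2 type V chains were both well read in 1 retina library only, knockout replicate 4.

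FACIT and multiplexin chains of the retina varied from library to library as well. Col9a1 had 13.2, 5.61, 12.6, 25 and 10.8 CPM in knockout retina and 0.383, 9.91, 16.7 and 9.62 CPM in control retina, with overlap between genotypes. Col9a2 had 0.358, 4.54, 16.1, 6.96 and 11.3 CPM in knockout retina and 0, 0, 0.859 and 0.991 CPM in control retina, and only knockout replicate 1 lay within the control range (log2 change 4.03, SE 1.71, adjusted p = 0.319). Col9a3 had 0, 7.01, 16.9, 8.13 and 0 CPM in knockout retina and 9.70, 0, 0 and 4.13 CPM in control retina. Replicates 2, 3 and 4 of knockout retina held all type IX chains above 4 CPM, while no control library did. Col19a1 ranged from 1.76 to 6.32 CPM in knockout retina and 3.31 to 20.5 CPM in control retina. Col22a1, a chain of tissue junctions, had 0, 18.2, 7.77, 0 and 3.98 CPM in knockout retina and 0, 0.0560, 0 and 7.39 CPM in control retina, and the library at 7.39 CPM held nearly all control reads. Col18a1 had 37.3, 44.4, 10.8, 37.3 and 29.1 CPM in knockout retina and 16.8, 4.62, 17.9 and 38.9 CPM in control retina, and Col26a1 had 10.1, 10.2, 5.93, 5.82 and 1.94 CPM in knockout retina and 7.69, 13.9, 0.989 and 5.53 CPM in control retina, both with overlap.

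Whether the genotype effect differed between the fractions was tested as an interaction over all 18 libraries. Of the 24 members tested edgeR called 0, against 0.469% of all genes (0.0772% higher and 0.392% lower). By edgeR 6 of the 24 members had an unadjusted p under 0.05, as did 2271 of the 18128 genes tested. DESeq2 called 6 members (6.01% of all genes) and limma voom 1 (0.8% of all genes). Col8a1 had a log2 difference, microglia effect minus retina effect, of -8.0 (SE 2.13, adjusted p = 0.112), and Col4a3 had 3.24 (SE 1.83, adjusted p = 0.513). Col23a1, whose fitted changes had opposite signs in microglia and retina, had -4.79 (SE 1.73, adjusted p = 0.254). Limma voom gave 0.0132 for Col23a1, and edgeR without knockout microglia replicate 3 gave 0.000113. Without knockout retina replicate 1 Col17a1 was called, at an adjusted p of 0.0319.

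Of the genes that make, modify and bind collagen, 0 were called by genotype and several were higher in microglia. Of 33 genes of synthesis and processing, edgeR called 0 of 22 tested by genotype in microglia and 0 of 25 in retina, where all genes had 0.115% and 1.66% called. An unadjusted p under 0.05 was reached by 2 of them in microglia, against 855 of 14835 genes tested. In retina it was reached by 1 of them, against 2180 of 15332 genes. Between fractions 10 of 25 were higher in microglia and 1 was lower in knockout mice, against 23.7% and 21.2% of all genes. In control mice 9 of 22 were higher and 1 lower, against 22.8% and 17.4% of all genes. Plod3, a lysyl hydroxylase and glycosyltransferase of collagen, had 263 ± 66.2 CPM in knockout microglia and 12.6 ± 7.38 CPM in knockout retina (log2 change 4.31, adjusted p = 1.47e-05). P4ha1, a catalytic subunit of prolyl hydroxylase, had 326 ± 69.1 CPM in knockout microglia and 79.1 ± 17.8 CPM in knockout retina (log2 change 1.96, adjusted p = 1.92e-05). Serpinh1, the collagen chaperone, named after its values were seen, averaged 1.75 CPM in knockout microglia and 16.7 CPM in knockout retina and did not pass (adjusted p = 0.0707).

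Of 11 collagen receptors, 4 were higher in microglia and 1 was lower in each genotype, of 6 tested in knockout mice and 5 in control mice, where 44.9% of all genes were called in knockout mice and 40.2% in control mice. Lair1, an inhibitory collagen receptor of immune cells, had 945 ± 88.7 CPM in knockout microglia and 1.66 ± 1.91 CPM in knockout retina (log2 change 9.08, adjusted p = 6.36e-05). Mrc2, the endocytic receptor for collagen fragments, had 178 ± 96.3 CPM in knockout microglia and 0.835 ± 1.87 CPM in knockout retina (log2 change 7.67, adjusted p = 0.00686). Ddr1, a collagen-activated kinase, was the receptor called lower, with 22 ± 20.7 CPM in knockout microglia and 145 ± 26.8 CPM in knockout retina (log2 change -2.81, adjusted p = 0.00326). Sparc, a collagen-binding matrix protein, had 6736 ± 569 CPM in knockout microglia and 258 ± 69.8 CPM in knockout retina (log2 change 4.63, adjusted p = 6.44e-08). By genotype in microglia Sparc had 6736 ± 569 CPM in knockouts and 5477 ± 284 CPM in controls, which did not pass (log2 change 0.30, SE 0.07, adjusted p = 0.262). Of 17 basement membrane partners, 2 were higher and 2 lower in microglia of knockout mice (7 tested), and 3 were higher and 0 lower in control mice (5 tested), against the same shares of all genes. Lama5 and Nid1, laminin and nidogen chains of basement membranes, were the partners called lower in knockout mice.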

How the data were processed

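RNA came from flow-sorted mouse retinal cells, and per the labels' protocols cDNA was amplified from a few nanograms or less before paired sequencing. The authors deposited raw counts per gene for 18 libraries, as whole numbers. The submitters' processing notes list STAR 2.7.9a, DRAGEN, Subread, featureCounts, edgeR, limma and GRCm38 with no roles, and whether counting used strand is not given in the sources used here. Per the file headers, the authors' deposited tables of each genotype comparison hold log2 fold changes, a test score and p-values, raw and adjusted.

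Of 55774 lines, 287 repeated an identifier with identical counts, which left 55487 genes, 0 of them unnamed. Each genotype comparison used the 9 libraries of its fraction, each fraction comparison those of its genotype, and the interaction all 18. The tests were edgeR 4.0.16 in R 4.3.3 (quasi-likelihood, filterByExpr, TMM, Benjamini-Hochberg over all genes tested, called under 0.05), checked on simulated counts. SEs are the log2 change over the root of F. CPM use TMM factors over all 18 libraries, and CPM per kb the union of GENCODE M21 exons, so folds of printed levels can differ slightly from fitted changes. Where a group had 0 reads, 3 counts over the group served as its floor, and ratios with 1 to 3 reads carry exact 95% counting intervals. Both use reads pooled over the group and the group's pooled TMM-scaled library size. Neither covers amplification, which copies molecules before counting.

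Members named with a value in every library were those called in any comparison, those with a mean of 5 CPM in a group, and their partner chains. The members, gene lists and tests were chosen with earlier results of these data known. Alternatives were DESeq2 1.42.0 and its size factors, limma 3.58.1 (voom), no filter, 1 CPM in 4 libraries, the replicate block, a fit over all 18 libraries, covariates (genes with a count, rod marker level) and leaving out each library.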

Additional observations from a re-analysis of the deposited data

Results flagged for a closer look

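The 18 members with a mean of 5 CPM in some group were checked for a library far from the others of its group, by the gap to the nearest library over the group's range. Of 64 groups of values, 14 had such a library. The cutoffs used are passed by about 1 in 20 groups of normally distributed values. Sparse, skewed read counts of members picked for a high mean are not such values, so that rate is no measure of chance here. The same check was not run over all genes.

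In knockout microglia, Col23a1 reached 3.93 CPM in replicate 3, with 0.0829 CPM next. Replicate 2 stood apart for Col9a1 (26.1 CPM), Col26a1 (5.42 CPM) and Col5a3 (0.276 CPM). Col9a3 had 3.69 CPM in replicate 4, Col4a1 had 7.41 CPM in replicate 5, and Col4a4 had 0.924 CPM in replicate 1.

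In control microglia, Col27a1 had 31.7 CPM in replicate 2, against 21.4 CPM in the next library. Col2a1 had 23.6 CPM in replicate 4, and Col5a3 had 4.00 CPM in replicate 1.

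In knockout retina, Col15a1 had 0.154 CPM, or 6 reads, in replicate 1 and 0 reads elsewhere. In control retina replicate 4 stood apart for Col22a1 (7.39 CPM) and Col4a1 (5.20 CPM), and replicate 1 for Col27a1 (5.28 CPM). All 14 were the highest library of their group.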

How the results depend on the processing

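The number of collagen chains called in microglia by genotype was 0 in all 17 alternatives. In retina, 2 by edgeR, it was 1 with no filter (38 tested), 1 with limma voom, 1 in the fit over all 18 libraries, 5 with DESeq2, 0 with either covariate (genes per library or rod markers) and 0 to 3 with a library left out. For the interaction, 0 by edgeR, it was 6 with DESeq2, 1 with limma voom and 0 to 1 with a library left out. Between fractions edgeR called 6 of 14 tested in knockout mice (44.9% of all genes) and 6 of 17 in control mice (40.2% of all genes). In knockout mice the number was 10 with DESeq2 (52.2% of all genes) and 13 with limma voom (56.4% of all genes). There it was also 14 of 42 tested with no filter and 6 to 13 of 15 to 19 tested with a library left out. In control mice it was 10 with limma voom (49.5% of all genes) and 6 to 7 with a library left out. The cause of these changes was not tested. The shares of all genes called in the fits with no filter or with a library left out are not given here. The member counts of those fits support no statement on the family. The retina signs that turned were those of Col23a1 (log2 change -0.60) and Col4a4 (-0.041) with rod marker level as a covariate. Both covariates largely followed genotype in retina, so these fits cannot separate genotype from the covariate.

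Replicate numbers were not taken as pairs. Within a genotype, deviations of same-numbered microglia and retina libraries correlated at -0.0119 to 0.0577. Same-numbered knockout and control libraries, which cannot share an animal, correlated at -0.0464 to 0.0144. With the replicate block retina calls were 0 by genotype, with Col4a3 at an adjusted p of 0.177 and Col8a1 at 0.234, and 0 in microglia and in the interaction. In the fits by genotype within a fraction, the block joined same-numbered knockout and control libraries. That match is arbitrary, so those values cannot test pairing. Fraction calls were 8 in knockout mice and 4 in control mice, where Col15a1 (0.0540) and Col23a1 (0.0631) no longer passed. Without the block edgeR called 44.9% of all genes in knockout mice and 40.2% in control mice. The shares with the block are not given here, so these counts support no statement on the family.

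Depth limits sparse chains: 20 of the 44 members passed the filter on low counts in none of the 5 comparisons and were tested only in the fits with no filter.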
